A study of Arabidopsis thaliana with 18 samples.

Results

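The Aux/IAA and GH3 auxin response genes of Arabidopsis thaliana were described in 18 mRNA-seq libraries of small-RNA pathway genotypes. The set held 35 genes, 29 Aux/IAA genes and 6 GH3 genes, found by their locus among the 33378 genes named in 31362 rows of the deposited count tables. A row of their own was found for 34 of the 35, and IAA13 (AT2G33310) was counted together with an overlapping gene, AT2G33300. A filter on low counts kept 32 of the 35, so no statement below covers IAA15 (AT1G80390), IAA29 (AT4G32280) or IAA34 (AT1G15050), which had between 0 and 9 reads in a library.

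Auxin acts by removing repressors. Aux/IAA proteins bind the auxin response factors (ARFs), which sit on the promoters of auxin-regulated genes, and recruit the co-repressor TOPLESS; auxin glues the F-box receptors TIR1 and AFB to a short degron in the Aux/IAA protein, which is then degraded. Many Aux/IAA genes are themselves switched on by auxin, a negative feedback. GH3 enzymes join auxin or other acids to amino acids, which stores or destroys the hormone, and several GH3 genes are early auxin response genes too. The small-RNA pathway reaches this system at known points: microRNAs and trans-acting siRNAs cut the transcripts of some receptors and ARFs, and the trans-acting siRNAs need DCL4.

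All plants were of the Columbia accession (Col-0), grown in vitro at 22 °C on a day of 18 h light followed by 6 h dark, and taken whole as seedlings 11 days after germination per the labels. Col-0 (n = 3) was the wild type. With wild-type DCL genes there were 3 libraries of 35S-RTL2 and 2 of 35S-RTL1-Myc, in which the broadly active viral 35S promoter drives a gene for an RNase III-like protein, and 3 of rtl2-1, a mutant of RTL2. The dcl234 plants (n = 3) are mutant for DCL2, DCL3 and DCL4, Dicer-like genes whose products make siRNAs. The same dcl234 mutations were shared by dcl234 35S-RTL2 (n = 3) and by dcl234 truncated DCL1 (n = 1), which carries a shortened DCL1 behind the 35S promoter, DCL1 being the Dicer-like gene that makes most microRNAs. The labels do not say whether replicates came from separate cultures or lines, so the p-values rest on a spread among libraries that may be technical only.

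Library totals ran from 20775728 to 34874423 counts, and replicates of a group correlated at r = 0.964 to 0.993, lowest in rtl2-1. RTL1 and RTL2 followed the labels: RTL1 was at 1585 and 1525 CPM, counts scaled to the size of the library, in 35S-RTL1-Myc, and RTL2 was higher in 35S-RTL2 (log2 change 7.57, SE 0.20) and lower in rtl2-1 (log2 change -2.85, SE 0.26) than in Col-0. In dcl234 the joined rows AT3G43930--DCL3 (log2 change -2.64, SE 0.18) and AT3G03305--DCL2 (-0.75, SE 0.08) were lower than in Col-0, while DCL4, at 31.8, 25.9 and 26.6 CPM against 35.4, 33.0 and 27.1 CPM, overlapped and was not called. Markers of the tissue were less simple. The floral organ identity genes AP3, PI, AG and SEP3 summed to between 401.3 and 585.4 CPM in every library of every group, while the root hair and root tip genes EXPA7, RHD6 and WOX5 and the endodermal regulator MYB36 did not pass the filter, at 0.239 CPM or less. The other 5 of the 9 root markers passed it, COBL9, NRT2.1 and the rows of BGLU23, CASP1 and ESB1, each of the last 3 counted with an overlapping gene. BGLU23 made up most of the summed root marker level of 31.80 to 45.11 CPM, at 19.1 to 28.0 CPM. COBL9 was at 1.25 CPM or less and NRT2.1 at 1.82 CPM or less in every library. The ESB1 row was at 6.63 to 10.6 CPM and the CASP1 row at 1.36 to 11.3 CPM. The floral genes raise a doubt about the label of whole seedlings. The root markers went both ways, with 4 of the 9 near 0 and the rows of BGLU23, ESB1 and CASP1 detected in every library. They do not settle whether roots were included, and which tissue was sampled was not tested. In bulk samples like these, fewer cells of a type and less RNA per cell cannot be told apart.

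Levels are given as CPM scaled by the trimmed mean of M-values (TMM), and differences as log2 changes with their standard error (SE) from edgeR's quasi-likelihood fit over all 18 libraries. A gene was called where its p, Benjamini-Hochberg adjusted over all 21343 rows tested, was below 0.05. Across the 7 groups 24 of the 32 tested genes were called for any difference, against 40.7% of all rows. The 8 that were not called were IAA5 (AT1G15580), IAA13, IAA18 (AT1G51950), IAA20 (AT2G46990), IAA27 (AT4G29080), IAA28 (AT5G25890), IAA30 (AT3G62100) and IAA33 (AT5G57420).

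**Figure D1:**
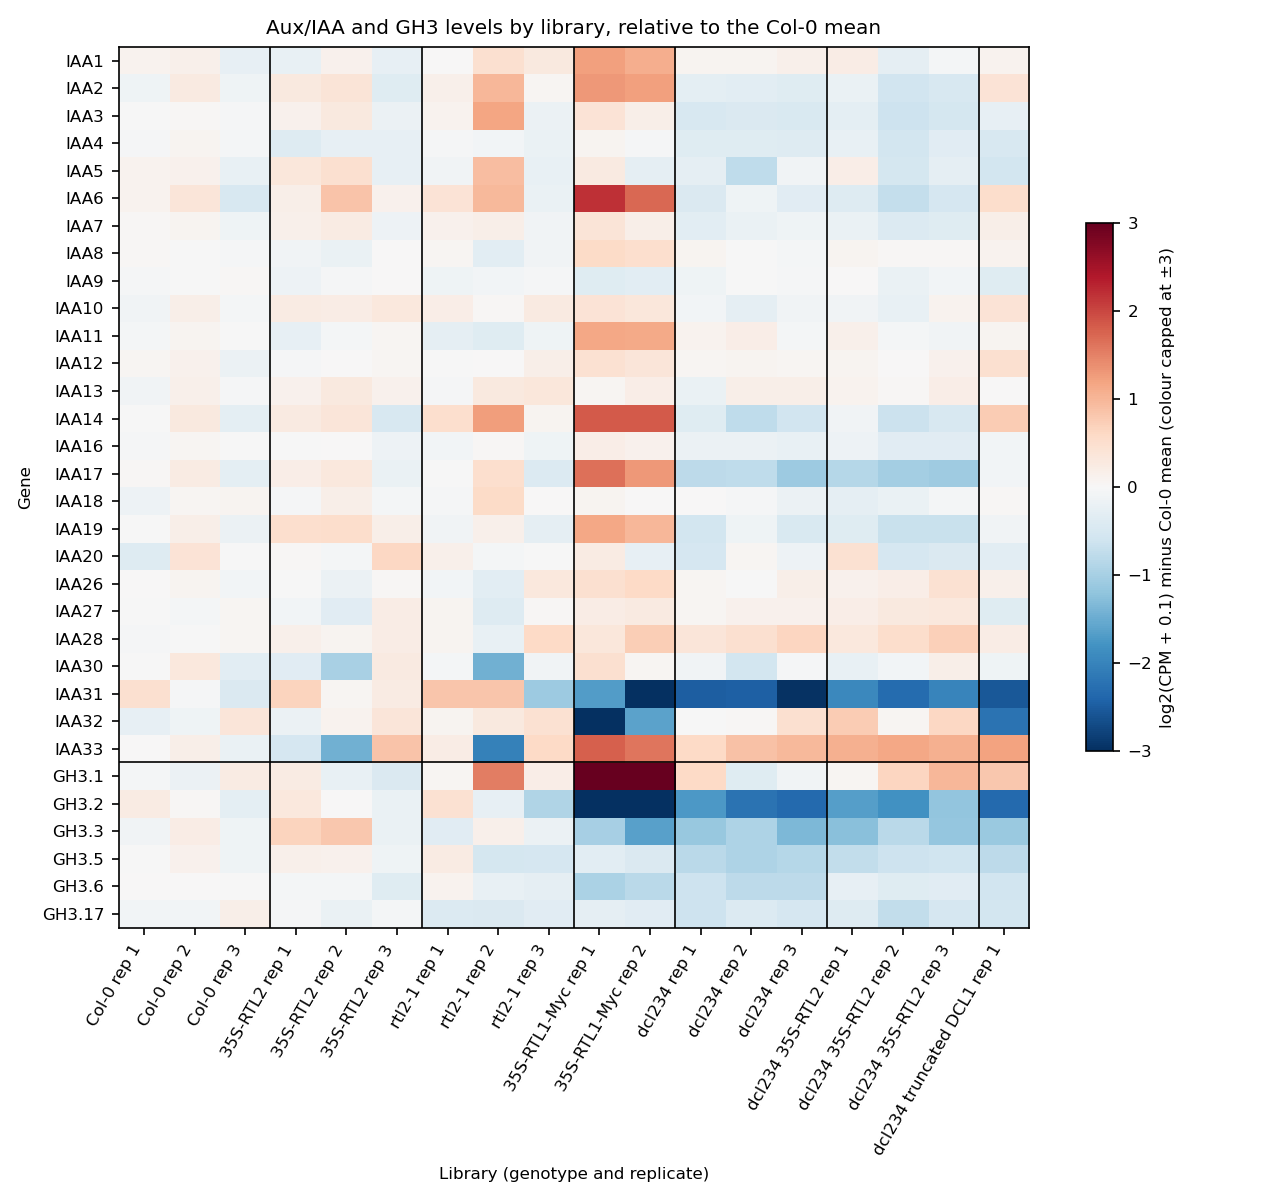
Level of the 32 tested Aux/IAA and GH3 genes (rows) in each of the 18 libraries (columns, by genotype and replicate), as log2(CPM + 0.1) minus the Col-0 mean. Colour is capped at 3 on either side; GH3.2 and IAA31 are low in 35S-RTL1-Myc and in every library with the dcl234 mutations, while most Aux/IAA genes that stand out are high in the 35S-RTL1-Myc libraries.

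In 35S-RTL1-Myc plants the families moved apart. Against Col-0, 20 of the 32 genes were called, 13 higher and 7 lower, where 29.5% of all rows were called (14.8% higher and 14.7% lower). Among 26 tested Aux/IAA genes 12 rose and 3 fell; among the 6 GH3 genes 1 rose and 4 fell. The median log2 change was 0.33 over the Aux/IAA genes and -0.63 over the GH3 genes, against -0.00401 over all rows. Summed over the genes, Aux/IAA levels were 2023 and 2106 CPM in the 35S-RTL1-Myc libraries and 1721 to 1796 CPM in Col-0, and GH3 levels were 144.0 and 152.9 CPM against 237.0 to 251.9 CPM.

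The Aux/IAA genes that rose most included regulators known from dominant mutants. IAA14 (AT4G14550, SOLITARY-ROOT), which represses lateral root initiation when stabilised, was at 5.31, 6.59 and 4.36 CPM in Col-0 and at 19.4 CPM in both 35S-RTL1-Myc libraries. All other libraries lay at 12.9 CPM or below, so the groups did not overlap. The log2 change was 1.84 (SE 0.30, adjusted p = 0.000346). IAA17 (AT1G04250, AXR3), whose stabilised form blocks auxin response across the plant, was at 22.6, 26.2 and 18.0 CPM in Col-0 and at 69.1 and 54.5 CPM in 35S-RTL1-Myc. These were the highest values of the gene in any library, a log2 change of 1.47 (SE 0.22, adjusted p = 0.000197). IAA6 (AT1G52830, SHY1), first found through a mutant that suppresses a phytochrome-deficient one, was at 2.30, 2.79 and 1.51 CPM in Col-0 and at 10.2 and 7.32 CPM in 35S-RTL1-Myc. Its groups again stood apart, with a log2 change of 1.98 (SE 0.32, adjusted p = 0.000339).

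IAA19 (AT3G15540, MSG2), which limits hypocotyl bending, was at 20.8, 23.8 and 18.6 CPM in Col-0 and at 46.7 and 41.6 CPM in 35S-RTL1-Myc, a log2 change of 1.07 (SE 0.16). IAA1 (AT4G14560, AXR5) and IAA2 (AT3G23030), both rapidly auxin-induced, rose by log2 1.16 (SE 0.17) and 1.25 (SE 0.24). IAA11 (AT4G28640) was at 23.1 and 22.9 CPM, against 9.91, 10.9 and 10.2 CPM in Col-0, a log2 change of 1.15 (SE 0.11, adjusted p = 7.23e-06). This was the smallest adjusted p of any Aux/IAA gene in the comparison. Smaller rises were called for IAA8 (AT2G22670, log2 change 0.53, SE 0.10), IAA12 (AT1G04550, BODENLOS, a repressor of embryonic root formation; 0.41, SE 0.09), IAA26 (AT3G16500, 0.54, SE 0.15) and IAA28 (0.56, SE 0.19). Without 35S-RTL1-Myc replicate 2 the IAA26 call was lost (adjusted p 0.0841) and the IAA28 change was 0.36 (adjusted p 0.319). The IAA28 call was lost in 5 of 12 alternatives, which include leaving out any of the Col-0 libraries. IAA9 (AT5G65670) was the only Aux/IAA gene with a complete degron to fall, at 445 and 460 CPM against 563, 572 and 594 CPM, a log2 change of -0.35 (SE 0.09, adjusted p = 0.00741). The IAA9 call was kept in 11 of 12 alternatives and lost without 35S-RTL1-Myc replicate 1.

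The Aux/IAA genes were also counted by the degron, a grouping chosen after the values were seen that gets no test. IAA20, IAA30, IAA31, IAA32, IAA33 and IAA34 encode proteins without the complete degron that the receptor binds, and are known to be more stable or differently regulated. Of the 5 tested, 1 was called higher and 2 lower in 35S-RTL1-Myc, and 2 were not called. Of the 21 tested genes with the degron, 11 were called higher and 1 lower, and whether the groups differ was not tested.

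IAA31 (AT3G17600) and IAA32 (AT2G01200) gave the deepest falls of the Aux/IAA family. IAA32, which has a described role in the apical hook, was at 5.02, 5.50 and 7.76 CPM in Col-0 and at 0.651 and 1.91 CPM in 35S-RTL1-Myc. The only other library that low was that of dcl234 truncated DCL1, at 1.22 CPM. The log2 change was -2.24 (SE 0.37, adjusted p = 0.000406), and it was -3.20 without 35S-RTL1-Myc replicate 2 and -1.67 without replicate 1, called each time. IAA31 was at 3.72, 2.56 and 1.94 CPM in Col-0 and at 0.760 and 0.204 CPM in 35S-RTL1-Myc, a log2 change of -2.51 (SE 0.60, adjusted p = 0.00556). The 2 libraries lay below every Col-0 library, but without replicate 2, the lower, the change was -1.83 with an adjusted p of 0.0748, and without replicate 1 it was -3.72. IAA33, a degron-free member, was at 0.669, 0.753 and 0.561 CPM in Col-0 and at 2.53 and 2.21 CPM in 35S-RTL1-Myc, called higher at a log2 change of 1.83 (SE 0.60, adjusted p = 0.0328). That call was lost in 6 of 12 alternatives, among them leaving out any library of either group.

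**Figure D2:**
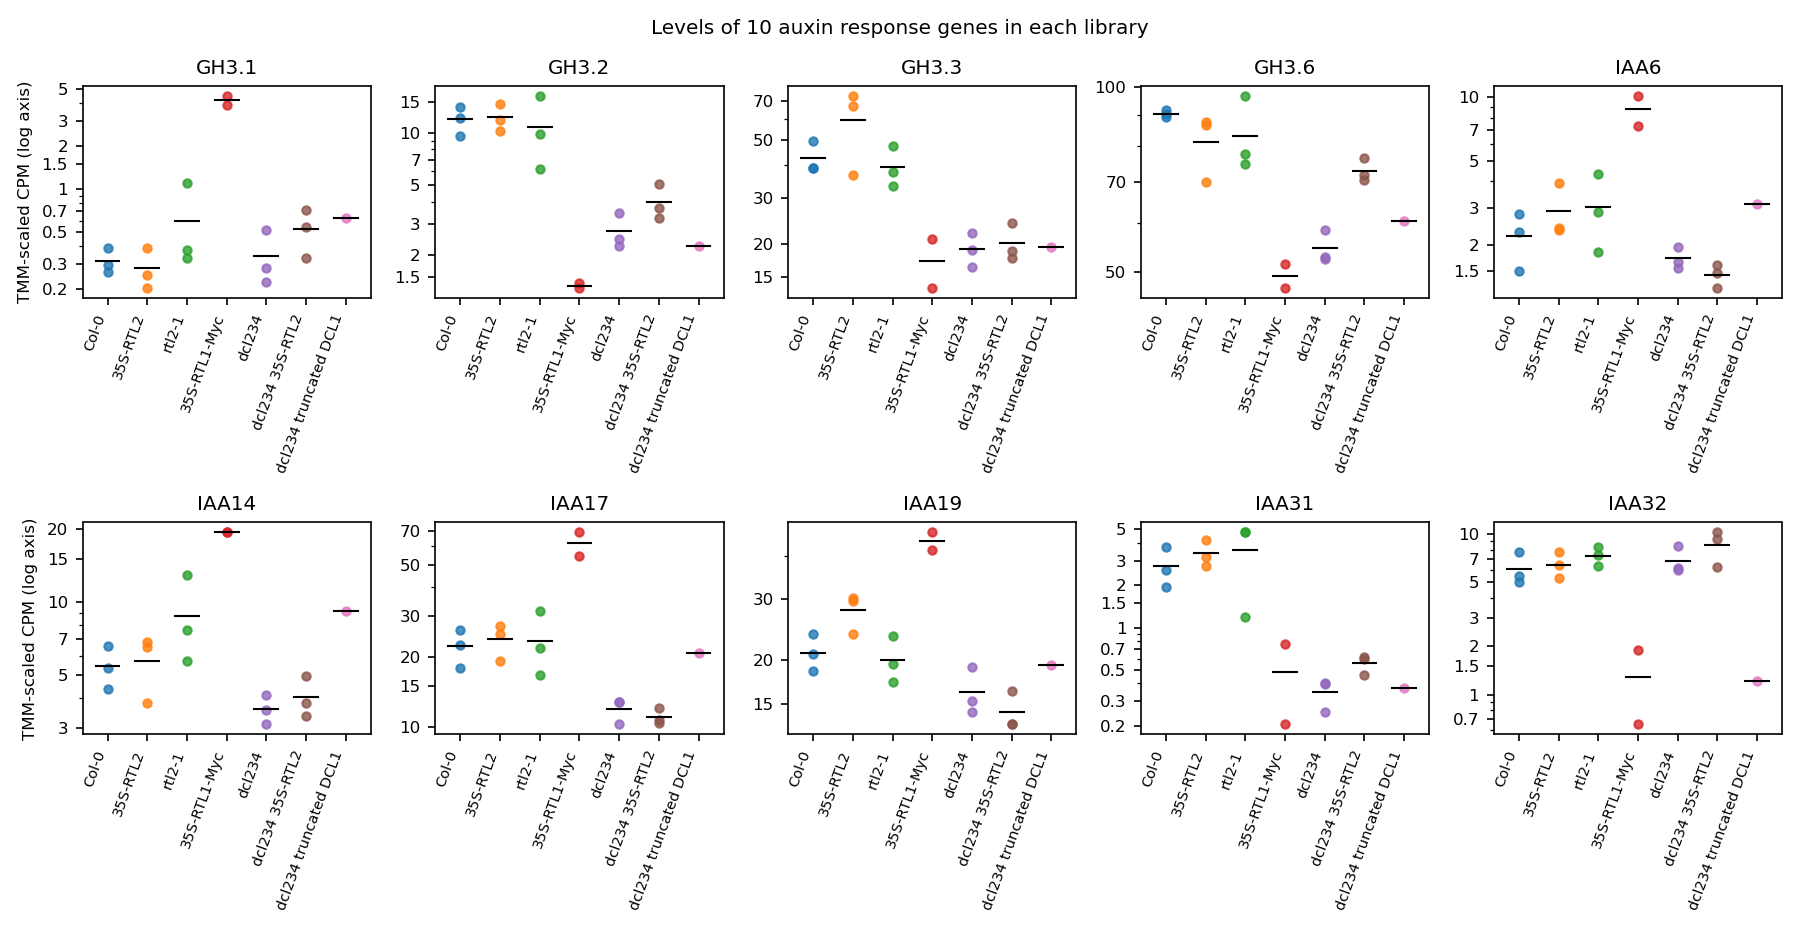
TMM-scaled CPM (log axis) of 10 Aux/IAA and GH3 genes in each library, by genotype; points are libraries and black lines are group means. IAA31 lies at 0.760 CPM or less in 35S-RTL1-Myc and all dcl234 genotypes, IAA32 is low in 35S-RTL1-Myc and in dcl234 truncated DCL1, and GH3.1 is high in 35S-RTL1-Myc.

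Of the GH3 genes, GH3.1 went against the others. GH3.1 (AT2G14960), an auxin-inducible member, was at 0.293, 0.264 and 0.388 CPM in Col-0 and at 4.52 and 3.91 CPM in 35S-RTL1-Myc. The highest level outside those 2 libraries was 1.10 CPM, in rtl2-1 replicate 2. The log2 change was 3.73 (SE 0.47, adjusted p = 4.32e-05). GH3.2 (AT4G37390), which conjugates auxin to aspartate and other amino acids, was at 14.0, 12.1 and 9.53 CPM in Col-0 and at 1.38 and 1.29 CPM in 35S-RTL1-Myc. Both values were below those of all 16 other libraries, and the log2 change was -3.15 (SE 0.38, adjusted p = 3.37e-05).

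GH3.3 (AT2G23170), an auxin-conjugating enzyme that acts with GH3.5 and GH3.6 in adventitious rooting, was at 39.0, 49.5 and 38.9 CPM in Col-0 and at 21.0 and 13.6 CPM in 35S-RTL1-Myc. Its log2 change of -1.30 (SE 0.27, adjusted p = 0.00252) became -1.01 with an adjusted p of 0.0514 without 35S-RTL1-Myc replicate 2. GH3.6 (AT5G54510, DFL1), whose overexpression gives short hypocotyls, was at 90.5, 91.6 and 89.4 CPM in Col-0 and at 47.0 and 51.5 CPM in 35S-RTL1-Myc. The Col-0 values were close together and well above, with a log2 change of -0.88 (SE 0.12, adjusted p = 7.75e-05). GH3.17 (AT1G28130, VAS2), which conjugates auxin to glutamate, fell by 0.32 on the log2 scale (SE 0.11, adjusted p = 0.0412), a call lost in 6 of 12 alternatives. GH3.5 (AT4G27260, WES1), which acts on auxin and salicylic acid, was at 38.0 and 34.8 CPM against 43.3 to 51.4 CPM and was not called (log2 change -0.37, SE 0.18, adjusted p = 0.140).

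Clock genes moved in the same libraries. Of 12 clock and PIF genes tested, 5 were higher and 6 lower in 35S-RTL1-Myc than in Col-0. The morning regulator LHY rose by log2 5.05 (SE 0.27) and RVE8 by 4.17 (SE 0.28). The 2 libraries were far apart in some of these genes, named after their values were seen. In replicates 1 and 2, ELF4 was at 1.12 and 25.8 CPM, PRR5 at 13.2 and 59.8 CPM and TOC1 at 32.5 and 87.4 CPM. LHY was at 149 and 104 CPM. The labels give no hour of harvest, so the construct and the hour cannot be told apart, and their part in the Aux/IAA and GH3 differences was not tested. Green shoot markers summed to 11520 CPM in both 35S-RTL1-Myc libraries and 14870 to 16560 CPM in Col-0, with 2 of 4 lower. The summed floral organ markers were 501.9 and 570.8 CPM against 469.0 to 544.5 CPM, with 0 of 4 called by edgeR's quasi-likelihood test or by DESeq2 (0 at an unadjusted p below 0.05). Root markers summed to 33.59 and 38.49 CPM against 31.80 to 34.72 CPM, with COBL9 lower (log2 change -1.81, SE 0.56) and the ESB1 row higher (0.37, SE 0.12) of 5 tested. The part of these markers in the Aux/IAA and GH3 differences was not tested.

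Within the numbers 1 to 3 that the file names carry, whose meaning the labels do not give, all 20 called genes kept their direction. That held for 1 library against 2 in number 2 (log2 differences -3.30 to 3.27) and for 1 against 1 in number 3 (-3.07 to 3.76). These libraries also gave the calls, so the kept directions are no separate check. Leaving out 1 library at a time gave 14 to 19 calls.

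The rest of the auxin pathway was read from lists of named genes, to be set against the 29.5% of all rows called in 35S-RTL1-Myc. Among other early auxin response genes, 8 of 15 tested were higher and 0 lower in 35S-RTL1-Myc (median log2 change 0.78). They included HB2, a homeodomain gene of the shade response (0.89, SE 0.11), SAUR9 (1.63, SE 0.30) and SAUR10 (at 1.48 and 1.63 CPM against 0.0863 CPM or less in Col-0), growth-related genes of the SAUR family. That count was 4 without Col-0 replicate 3 or without 35S-RTL1-Myc replicate 1, and 5 without Col-0 replicate 1. The auxin response factors had 6 of 15 higher and 0 lower. Those with the smallest adjusted p were ARF4 (1.63, SE 0.09), a target of trans-acting siRNAs, ARF10 (0.62, SE 0.07) and ARF8 (0.48, SE 0.08). ARF3, another target of trans-acting siRNAs and named here after its values were seen, rose by more than ARF10 and ARF8 (0.99, SE 0.20). ARF2, also such a target and also named afterwards, overlapped Col-0, at 302 and 306 CPM against 304, 277 and 262 CPM.

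Among auxin receptors and co-repressors, and among genes for auxin synthesis and inactivation, 27.3% were called, near the share of all rows, and nothing is read from those counts. Of the receptors and co-repressors 3 of 11 were higher and 0 lower, namely TIR1 (0.45, SE 0.12), AFB5 (0.29, SE 0.09) and the row of AFB3 with AT1G12810 (0.21, SE 0.07). Of 11 tested genes for auxin synthesis and inactivation 3 rose, the flavin monooxygenase genes YUC8 (2.54, SE 0.36) and YUC2 (1.04, SE 0.33) and the aminotransferase gene TAA1 (0.51, SE 0.14). The receptor count was 1 without Col-0 replicate 3, without 35S-RTL1-Myc replicate 1 or without replicate 2, and the synthesis count was 1 without Col-0 replicate 3 or 35S-RTL1-Myc replicate 1. Auxin transport had 4 of 11 higher and 1 lower; the efflux carrier gene PIN3 rose (1.39, SE 0.18), the influx carrier gene LAX3 rose (1.00, SE 0.16) and PIN2, an efflux carrier gene of the root, fell (-2.57, SE 0.35).

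**Figure D3:**
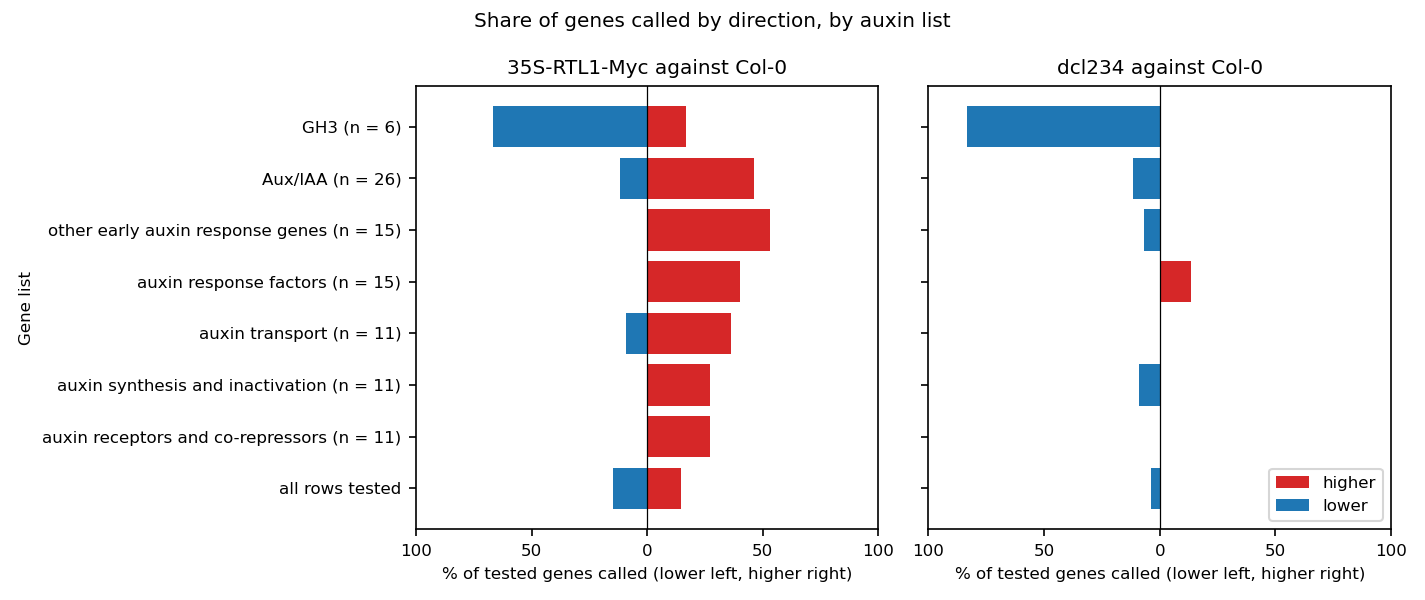
Share of tested genes called higher (right, red) and lower (left, blue) in 35S-RTL1-Myc and in dcl234, each against Col-0, for the auxin lists and for all 21343 rows tested. GH3 genes were mostly called lower in both panels, with 4 of 6 lower in 35S-RTL1-Myc and 5 of 6 in dcl234, and the other early auxin response genes were called higher in 35S-RTL1-Myc, 8 of 15.

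In the dcl234 triple mutant 5 of the 6 GH3 genes fell, and no member was called higher in the fit over all libraries. Against the same 3 Col-0 libraries, 8 of the 32 genes were called and all 8 were lower, where 4.56% of all rows were called and 3.80% were lower. These were 5 of the 6 GH3 genes and 3 of the 26 tested Aux/IAA genes. The median log2 change was -0.80 over the GH3 genes and -0.18 over the Aux/IAA genes, against 0.00775 over all rows, and summed GH3 levels were 132.0 to 140.3 CPM against 237.0 to 251.9 CPM.

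GH3.2 was at 3.47, 2.45 and 2.26 CPM in dcl234, all below the 9.53 to 14.0 CPM of Col-0. Its log2 change was -2.13 (SE 0.31, adjusted p = 0.00196). GH3.3 was at 19.0, 22.0 and 16.4 CPM, also without overlap, a log2 change of -1.15 (SE 0.24, adjusted p = 0.0131). GH3.6 was at 58.6, 52.8 and 52.5 CPM against 89.4 CPM or more, a log2 change of -0.73 (SE 0.10, adjusted p = 0.00191). GH3.2 and GH3.6 were called in all 13 alternatives, whereas the GH3.3 call was lost without dcl234 replicate 1, dcl234 replicate 3 or Col-0 replicate 2 (adjusted p 0.0581 to 0.0632).

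GH3.5 was at 26.7, 24.7 and 25.8 CPM against 46.7, 51.4 and 43.3 CPM in Col-0, a log2 change of -0.87 (SE 0.16, adjusted p = 0.00818). GH3.17 was at 32, 37.3 and 34.6 CPM against 46.6, 47.0 and 55.5 CPM, a log2 change of -0.52 (SE 0.10, adjusted p = 0.00816). Neither gene's groups overlapped. GH3.1, the member that rose in 35S-RTL1-Myc, was at 0.518, 0.223 and 0.282 CPM in dcl234 and was not called (log2 change 0.12, 95% interval -0.98 to 1.22).

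IAA31 was the Aux/IAA gene that fell furthest in dcl234. It was at 0.399, 0.401 and 0.251 CPM, against 1.94 CPM or more in Col-0, a log2 change of -2.98 (SE 0.54, adjusted p = 0.00706). IAA17 was at 12.8, 12.9 and 10.3 CPM against 18.0 CPM or more, a log2 change of -0.90 (SE 0.21, adjusted p = 0.0243), where the same gene was above Col-0 in 35S-RTL1-Myc. IAA4 (AT5G43700), an auxin-induced member, was at 55.1, 55.2 and 53.9 CPM against 69.4, 75.2 and 67.4 CPM, a log2 change of -0.37 (SE 0.08, adjusted p = 0.0216). The IAA4 and IAA17 calls were each lost in 6 of 13 alternatives. IAA32 was at 5.98, 6.14 and 8.41 CPM, overlapping Col-0 (log2 change 0.17, 95% interval -0.43 to 0.77).

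The libraries of dcl234 and Col-0 met in only 1 of the numbers in the file names. There, 1 against 1, all 8 genes were lower in dcl234 (log2 differences -3.01 to -0.44). Those libraries were part of the calls, so this is no separate check. With that number as a term in the fit 3 of the 8 were called, GH3.2, GH3.3 and GH3.6. With the dcl234 and Col-0 libraries fitted alone, 13 genes were called, 11 lower and 2 higher, the latter IAA28 (log2 change 0.50, adjusted p = 0.00581) and IAA33 (0.89, adjusted p = 0.0407). Leaving out 1 library at a time gave 4 to 8 calls, with 4 without dcl234 replicate 1 and 5 without dcl234 replicate 3 or Col-0 replicate 2.

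The rest of the auxin pathway was read from the same lists in dcl234. ARF4 (log2 change 1.34, SE 0.08) and ARF3 (1.07, SE 0.18), both targets of trans-acting siRNAs, were the 2 of 15 ARFs called, both higher. ARF2, also such a target, was not called, at 313, 282 and 281 CPM against 304, 277 and 262 CPM in Col-0. The other early auxin response genes summed to 75.41 to 84.10 CPM in dcl234 and 100.2 to 126.7 CPM in Col-0, without overlap, and 11 of the 15 tested were below Col-0, with a median log2 change of -0.43. Of these 15, edgeR called 1 and DESeq2 4; the homeobox gene HAT2 was called lower (-0.65, SE 0.16), a call lost in 6 of 13 alternatives, among them leaving out Col-0 replicate 1 or 2 or any dcl234 library. GH3.4 (AT1G59500), a relative outside the set, was at 0 CPM in all 3 dcl234 libraries and at 0.502, 0.188 and 0.216 CPM in Col-0. It was called lower, but all these levels are near the floor. The GH3.4 call was lost with the file number as a term and without Col-0 replicate 1 or any dcl234 library, each left out in turn. With edgeR's quasi-likelihood test 0 of 11 receptors and co-repressors and 0 of 11 transport genes were called (0 and 1 at an unadjusted p below 0.05, and 0 and 1 by DESeq2). Of 12 clock and PIF genes 0 were called by edgeR's quasi-likelihood test, 1 had an unadjusted p below 0.05 and DESeq2 called 0. Summed floral organ markers were 468.5 to 585.4 CPM in dcl234 and 469.0 to 544.5 CPM in Col-0. Root markers summed to 38.32 to 39.14 CPM against 31.80 to 34.72 CPM, without overlap; of 5 tested, 0 were called by edgeR's quasi-likelihood test or by DESeq2 and 3 had an unadjusted p below 0.05. The part of these markers in the GH3 and Aux/IAA differences was not tested.

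The dcl234 difference could be measured again in libraries not used above, between dcl234 35S-RTL2 and 35S-RTL2, a comparison chosen after the data were seen. There 9 of the 32 genes were called and all 9 were lower, where 20.9% of all rows were called (9.11% higher and 11.8% lower). Called in either direction, the share of members was 28.1% against 20.9%. Called lower, it was 28.1% against 11.8%. The genes called lower in both comparisons were 6, GH3.2, GH3.3, GH3.5, GH3.17, IAA17 and IAA31, which is 75.0% of the first list and 66.7% of the second. Over all rows, 742 were called lower in both, 91.4% of the 812 lower in the first comparison and 29.5% of the 2517 lower in the second. The first share of the members was thus below that of all rows, and the second was above it. The single estimate of spread was common to both.

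In that second measurement GH3.2 was at 3.68, 3.25 and 5.10 CPM in dcl234 35S-RTL2 and at 14.6, 11.8 and 10.2 CPM in 35S-RTL2, a log2 change of -1.60 (SE 0.30, adjusted p = 0.00253). GH3.3 was at 17.7, 24.1 and 18.9 CPM against 67.1, 73.4 and 36.8 CPM, a log2 change of -1.55 (SE 0.24, adjusted p = 0.000787). IAA31 was at 0.620, 0.459 and 0.597 CPM against 2.75 to 4.23 CPM, a log2 change of -2.58 (SE 0.51, adjusted p = 0.00377). None of these overlapped between the groups.

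IAA17 fell by 1.11 on the log2 scale in it (SE 0.21), GH3.5 by 0.70 (SE 0.16) and GH3.17 by 0.45 (SE 0.10). Called there and not in dcl234 against Col-0 were IAA6 (-1.01, SE 0.31), IAA7 (AT3G23050, AXR2, a repressor of shoot and root growth; -0.42, SE 0.11) and IAA19 (-0.97, SE 0.15). IAA6 lost its call without 5 of the 6 libraries, each left out in turn, and IAA7 without 4. GH3.6 was not called there (log2 change -0.16, 95% interval -0.38 to 0.06), and neither was IAA4 (-0.09, 95% interval -0.26 to 0.09).

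**Figure D4:**
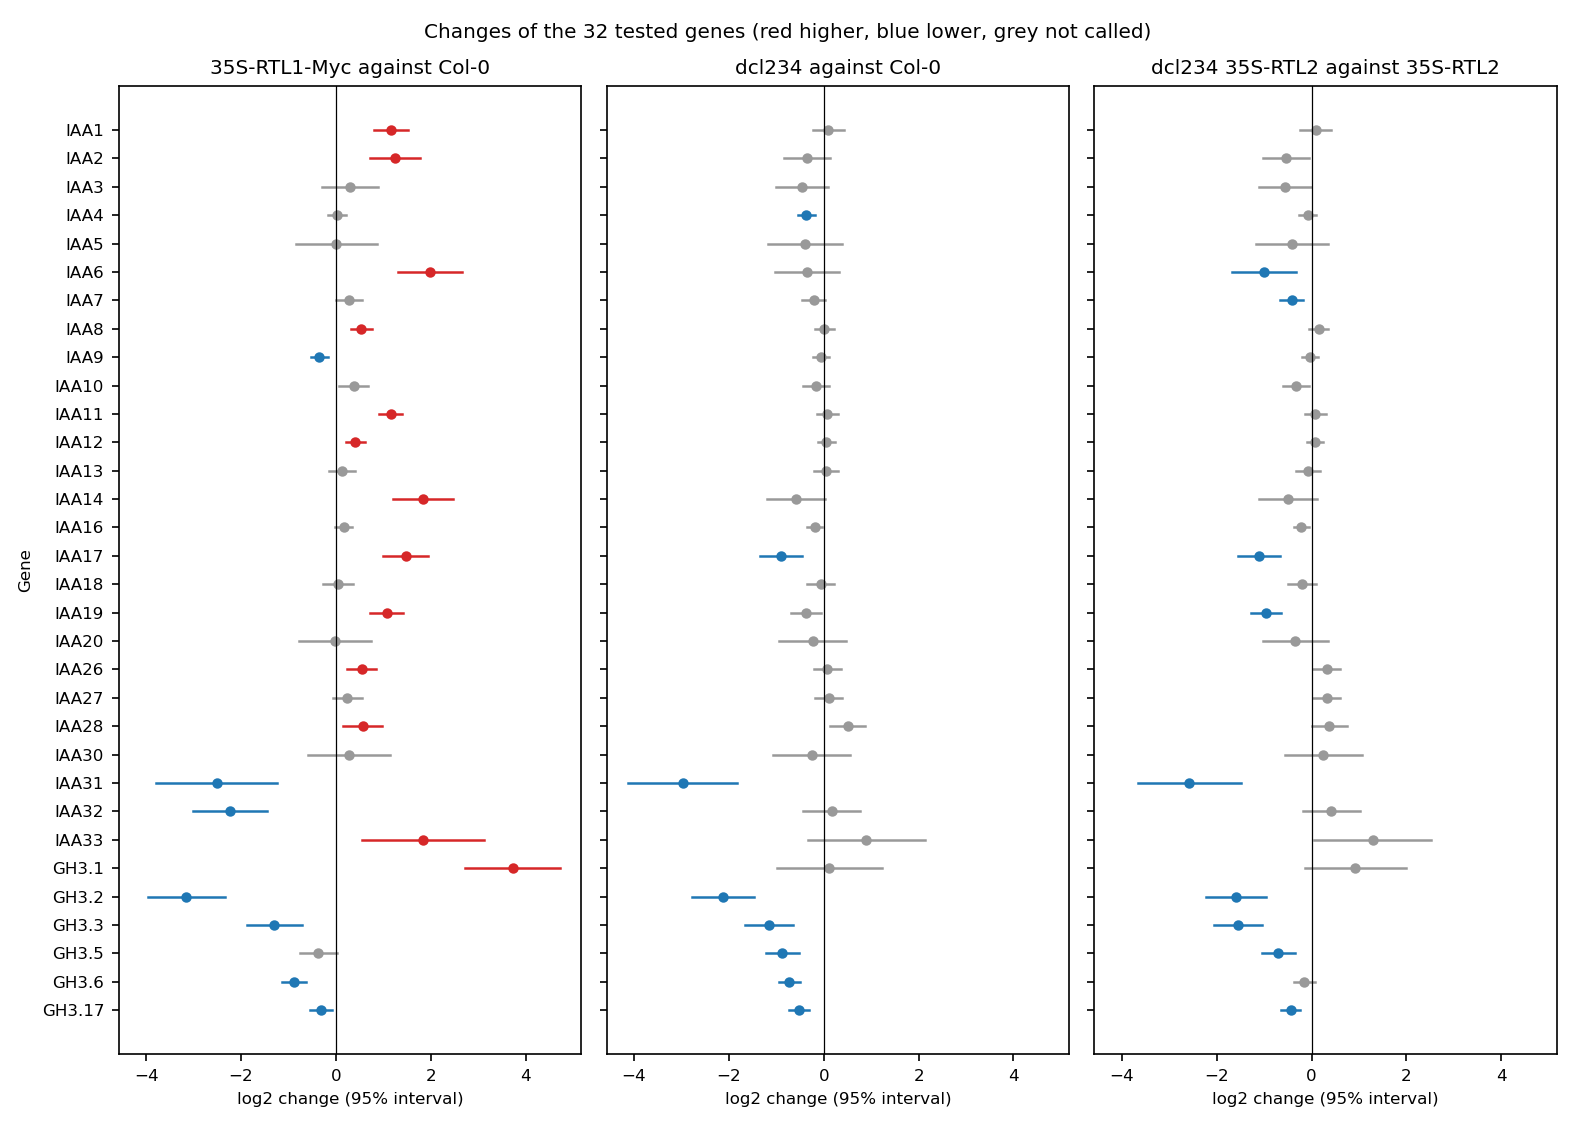
Log2 change with 95% interval of the 32 tested genes in 35S-RTL1-Myc and dcl234, each against Col-0, and in dcl234 35S-RTL2 against 35S-RTL2 (red called higher, blue called lower, grey not called). IAA31, GH3.2 and GH3.3 are called lower in all 3 panels, and IAA17 is called higher in the first and lower in the other two.

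35S-RTL1-Myc and dcl234 were also set directly against each other. Of the 32 genes 17 were called, 15 higher and 2 lower in 35S-RTL1-Myc, where 22.9% of all rows were called. Aux/IAA genes made up 14 of the higher and both of the lower, and 1 of the 6 GH3 genes, GH3.1, was higher (log2 change 3.61, SE 0.46, adjusted p = 6.70e-05). IAA17 differed by 2.37 (SE 0.23), IAA14 by 2.43 (SE 0.30), IAA6 by 2.34 (SE 0.32), IAA2 by 1.59 (SE 0.25) and IAA19 by 1.45 (SE 0.16) on the log2 scale. IAA1 (1.06), IAA11 (1.07), IAA8 (0.52), IAA7 (0.49), IAA10 (AT1G04100, 0.53), IAA26 (0.46), IAA4 (0.39), IAA12 (0.35) and IAA16 (AT3G04730, 0.35) were also higher in 35S-RTL1-Myc. Lower there were IAA32 (-2.41, SE 0.37) and IAA9 (-0.29, SE 0.09). The IAA9 and IAA26 calls were each kept in only 7 of 12 alternatives, and the IAA32 call in all 12.

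GH3.3, GH3.6, GH3.17 and IAA31 were not called between these groups. The 95% intervals of the log2 difference were -0.72 to 0.43 for GH3.3, -0.39 to 0.10 for GH3.6, -0.03 to 0.44 for GH3.17 and -0.98 to 1.92 for IAA31. GH3.2 was lower in both 35S-RTL1-Myc libraries than in any dcl234 library, with a log2 difference of -1.02 (95% interval -1.85 to -0.20) and an adjusted p of 0.0703, and DESeq2 called it (adjusted p = 0.0309). GH3.5 was higher in both 35S-RTL1-Myc libraries than in any dcl234 library, at a log2 difference of 0.50 (SE 0.18, adjusted p = 0.0596), and was called by DESeq2 (adjusted p = 0.0378) and with the groups fitted alone (adjusted p = 0.00261). Both of those fits called 3 of the 6 GH3 genes, GH3.1, GH3.2 and GH3.5. In number 3 of the file names, the only 1 they share, all 17 called genes kept their direction, 1 library against 1. Both libraries were part of the calls, so this is no separate check. Without 35S-RTL1-Myc replicate 1, 10 genes were called.

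The truncated DCL1 library was set against dcl234. Over the 32 tested genes the median log2 change was 0.0935, with 21 above 0 and 11 below. The median over all rows was 0.00117. With 1 library there is no replicate check, and the fit assumes that it varies like the other groups. Of the 32 genes 3 were called, where 5.65% of all rows were called. IAA32 was lower, at 1.22 CPM against 5.98, 6.14 and 8.41 CPM in dcl234, a log2 change of -2.49 (SE 0.49, adjusted p = 0.00544), and it was called in all 9 alternatives. IAA14 was at 9.17 CPM against 4.11, 3.12 and 3.58 CPM (log2 change 1.35, SE 0.37, adjusted p = 0.0428) and IAA12 at 36.2 CPM against a mean of 27.1 ± 0.28 CPM (SD, n = 3; 0.42, SE 0.11, adjusted p = 0.0417). These 2 calls were lost without dcl234 replicate 1, replicate 2 or replicate 3, each left out in turn.

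Clock genes differed in that library too. LHY was higher than in dcl234 by log2 3.32 (SE 0.30), CCA1 by 3.62 (SE 0.39) and PRR9 by 3.64 (SE 0.29), and 7 of 12 clock and PIF genes were called. The genotype and the hour of harvest cannot be told apart in it. Of the 6 GH3 genes 0 were called by edgeR's quasi-likelihood test or by DESeq2 (0 at an unadjusted p below 0.05), and GH3.2 was at 2.24 CPM, GH3.3 at 19.6 CPM and GH3.6 at 60.5 CPM.

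Changing RTL2 moved no member past the threshold. In rtl2-1 against Col-0, 0 of 32 genes were called by edgeR's quasi-likelihood test, where 0.122% of all rows were called, 3 had an unadjusted p below 0.05 and DESeq2 called 1, GH3.17. GH3.17 was at 37.6, 36.8 and 39.0 CPM in rtl2-1, below the 46.6 CPM or more of Col-0 without overlap, and its log2 change of -0.40 (SE 0.10) had an adjusted p of 0.210 (DESeq2 0.0326). The other 2 were IAA14 (0.68, SE 0.28) and IAA11 (-0.25, SE 0.11).

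Replicate 2 of rtl2-1 stood apart in several Aux/IAA genes and in some tissue markers. Its CASP1 row was at 11.3 CPM, against 3.85 CPM or less elsewhere, and NRT2.1 was at 1.82 CPM, against 0.625 CPM or less. Other root markers did not rise with them. COBL9 was at 0.212 CPM, against 0.580 and 0.406 CPM in rtl2-1 replicates 1 and 3. The ESB1 row was at 7.74 CPM against 9.33 and 9.13 CPM, and the BGLU23 row at 24.0 CPM against 21.6 and 25.9 CPM. The root markers of replicate 2 summed to 45.1 CPM, the highest of the 18 libraries. Its green shoot markers summed to 11703 CPM, against 18406 and 13401 CPM in the other rtl2-1 libraries. The part of these markers in the Aux/IAA levels of replicate 2 was not tested. IAA3 (AT1G04240, SHY2), which restrains root meristem growth, was at 29.3, 62.0 and 24.2 CPM in the 3 rtl2-1 libraries, and IAA2 was at 29.6, 52.6 and 27.6 CPM. IAA31 was instead at 4.77, 4.78 and 1.18 CPM, with replicate 3 low. Without replicate 2 the count of called members was 0, and without replicate 1 it was 1, GH3.5.

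In 35S-RTL2 against Col-0, 0 of 32 genes were called, with 0.00937% of all rows called, 2 genes at an unadjusted p below 0.05 and 0 called by DESeq2. The 2 were IAA19, at 29.6, 30.2 and 23.8 CPM against 18.6 to 23.8 CPM in Col-0 (log2 change 0.40, SE 0.15, adjusted p = 0.899), and IAA4 (-0.29, SE 0.08, adjusted p = 0.899). GH3.3 was at 67.1, 73.4 and 36.8 CPM in 35S-RTL2 replicates 1, 2 and 3, and at 39.0, 49.5 and 38.9 CPM in Col-0. Replicate 3 was thus below every Col-0 library, and replicates 1 and 2 were above every one.

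Adding 35S-RTL2 to dcl234 called 0 of 32 genes, against 0.0609% of all rows, with 1 at an unadjusted p below 0.05 and 0 called by DESeq2. That gene was GH3.6, at 76.5, 70.6 and 71.9 CPM in dcl234 35S-RTL2 and at 58.6, 52.8 and 52.5 CPM in dcl234, without overlap (log2 change 0.42, SE 0.10, adjusted p = 0.363). In the wild-type background GH3.6 was at 87.5, 86.6 and 70.1 CPM with 35S-RTL2 and at 89.4 CPM or more without it (-0.15, SE 0.10). The difference between the RTL2 effects of the backgrounds, tested as an interaction, called 0 of 32 genes against 0.00937% of all rows, with 3 at an unadjusted p below 0.05 and 0 called by DESeq2. GH3.6 had the smallest p of these (difference 0.57, SE 0.14, adjusted p = 0.891), beside IAA19 (-0.59, SE 0.21) and IAA4 (0.28, SE 0.12).

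Across all 7 groups IAA31, GH3.2 and GH3.3 were lower in 35S-RTL1-Myc and in each genotype with the dcl234 mutations than in the 9 libraries of Col-0, 35S-RTL2 and rtl2-1. This pattern was picked after the values were seen, and how many of all rows show it was not counted. IAA31 was at 1.18 to 4.78 CPM in the 9 libraries of Col-0, 35S-RTL2 and rtl2-1, at 0.251 to 0.620 CPM in the 7 libraries with the dcl234 mutations and at 0.204 and 0.760 CPM in 35S-RTL1-Myc. GH3.2 ran from 6.22 to 16.3 CPM, from 2.24 to 5.10 CPM and from 1.29 to 1.38 CPM in the same order. GH3.3 ran from 33.3 to 73.4 CPM, from 16.4 to 24.1 CPM and from 13.6 to 21.0 CPM. GH3.6 overlapped between the first 2 of these sets, at 70.1 to 96.8 CPM, 52.5 to 76.5 CPM and 47.0 to 51.5 CPM.

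Of the 35 genes, 3 pairs are neighbours with 0 protein-coding genes between them in the RefSeq annotation, IAA3 with IAA17, IAA2 with IAA7 and IAA14 with IAA1. In 35S-RTL1-Myc both IAA14 and IAA1 rose. IAA17 rose while IAA3 was not called (log2 change 0.29, SE 0.28), and IAA2 rose while IAA7 was not called (0.27, SE 0.13). In dcl234 IAA17 fell while IAA3 was not called (-0.46, SE 0.25).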

How the data were processed

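The deposited values are raw counts of reads per gene row, 1 table a library; the submitters' processing notes name TAIR9. Which aligner and counter were run, with what filters and strand setting, is not given in the sources used here. Of the 31362 rows, 1897 join 2 or more overlapping genes, and a gene's reads may include those of an antisense partner. Symbols came from RefSeq (TAIR10.1), used for names and neighbours only; no coordinates or sequences are given.

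Groups were taken from the sample titles. Counts were filtered with edgeR's filterByExpr (21343 rows kept), TMM-scaled and fitted with edgeR 4.0.16 (R 4.3.3, glmQLFit and glmQLFTest), with a mean for each of 7 groups over all 18 libraries (biological coefficient of variation 15.1%); intervals are at 95%. The scripts were tested on simulated data. DESeq2 1.42.0, other scalings, no filter, a file-number term, a replicate block, groups alone and each library left out were alternatives. From each pathway list, up to 3 called genes with the smallest adjusted p were to be named, and all members. Exceptions are ARF2 and, in 35S-RTL1-Myc, also ARF3, ELF4, PRR5 and TOC1. Members and lists were chosen with earlier results of these data known. No 2 replicates agreed within sampling noise (lowest chi-square per degree of freedom 4.78).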

Additional observations from a re-analysis of the deposited data

How the results depend on the processing

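Of the called members' log2 changes, 0 reversed under any alternative run. In dcl234 against Col-0 the 8 calls became 3 with the file number as a term and 13 (2 higher, 11 lower) with the 2 groups fitted alone, and 4 to 8 when 1 library was left out; the cause was not tested. For truncated DCL1 against dcl234 the 3 calls became 8 with the groups alone and 1 in each of the fits without 1 dcl234 library. In rtl2-1 against Col-0 the count was 0, and 1 with DESeq2; leaving out 1 library gave 0 to 1. In 35S-RTL1-Myc against dcl234 the 17 calls became 10 to 16 with 1 library left out, 20 with DESeq2 and 21 with the groups alone. For 35S-RTL1-Myc against Col-0 the alternatives gave 14 to 23 calls (20 as reported), and for dcl234 35S-RTL2 against 35S-RTL2 7 to 13 (9).

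The labels do not say whether replicate numbers pair the samples, and the main fit did not use them. Of 40 same-numbered pairs, 15 had a correlation of deviations over 0.1 (-0.302 to 0.539). Of 17 numbered libraries, 12 correlated best with their own number, a hint of pairing from the data and not the design. The fit with the replicate block called 20 members in 35S-RTL1-Myc against Col-0, 8 in dcl234, 18 in 35S-RTL1-Myc against dcl234, 11 in dcl234 35S-RTL2 against 35S-RTL2, 25 for any difference and 0 in the other comparisons. No paired analysis was possible for the truncated DCL1 library because its title has no replicate number. Genes with few reads, such as GH3.1, IAA31 and IAA33, have wide intervals, and 3 members were too low to test. The 35S-RTL1-Myc group has 2 libraries.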
